A study of Mus musculus with 2 samples.

Results

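The genes described here make up the receptors for interleukin-4 (IL-4) and their first signalling steps. They are 10 genes, picked by symbol and not by a rule on their values from the 32285 genes of the count tables: the receptor chains Il4ra, Il13ra1 and Il2rg, the Janus kinases Jak1, Jak3 and Tyk2, the transcription factor Stat6, the adaptor Irs2, and the inhibitors Socs1 and Cish. Earlier results of these data were known when the genes were chosen. All 10 were found in the tables, and all 10 had at least 20 UMIs over both libraries. A UMI is a molecular tag, so that each counted UMI stands for 1 captured RNA molecule.

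IL-4 first binds the receptor chain encoded by Il4ra. The complex then recruits either the common gamma chain encoded by Il2rg, which gives the type I receptor, or the chain encoded by Il13ra1, which gives the type II receptor that IL-13 also uses. The chains carry kinases of the Janus family, JAK1 on IL-4Rα, JAK3 on the common gamma chain and TYK2 on IL-13Rα1, and these phosphorylate STAT6, which moves to the nucleus and switches on its target genes. The type I receptor is the one lymphocytes use, while myeloid cells can form both, and IL-4 acting on macrophages through STAT6 gives the state called alternative activation. SOCS1 and CISH belong to a family of inhibitors that cytokine signals induce and that then dampen the same signals.

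Leukocytes had been sorted by their surface CD45 from subcutaneous B16F10 tumours, a transplantable mouse melanoma, and made into 10x Genomics single-cell RNA libraries, with 1 library in each group. The IL4 library came from tumours of mice that had received bone-marrow-derived macrophages (BMDMs) treated with IL-4, and the Control library from tumours of mice that had received untreated BMDMs; the labels give a wild-type genotype for both. The field on the treatment protocol speaks of IL-4-treated BMDMs in the IL4 and Control samples alike, which does not match the sample characteristics, and the groups here follow the characteristics. The number of animals, their age and the time between transfer and sampling are not given in the sources used here. Nothing in the tables marks a transferred cell, so every value below is that of transferred and host leukocytes together, and the transferred cells, not the mice, are what had met added IL-4.

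The IL4 library held 13873 barcodes with a median of 8213 UMIs, and the Control library 8994 barcodes with a median of 9156.5 UMIs. Of these, 13762 IL4 and 8937 Control barcodes were kept, and 23 cell barcodes occurred in both libraries. Kept barcodes were sorted into leukocyte types by how many of 8 marker genes they held, and 9 types with at least 50 barcodes in each library are described: macrophages (1701 IL4 and 1202 Control barcodes), classical monocytes (3597 and 2291), non-classical monocytes (70 and 53), neutrophils (148 and 309), type 1 conventional dendritic cells (cDC1; 481 and 298), type 2 conventional dendritic cells (cDC2; 645 and 457), mature dendritic cells (mature DC; 523 and 297), T cells (351 and 208) and NK cells (403 and 158). These names mean the gates, and a gate passes deep barcodes more easily than shallow ones. All 8 of the markers were detected in each of these gates; cDC1 were the deepest, with a median of 19273 UMIs in IL4 and 22973.5 in Control, and neutrophils the shallowest, with 2638.5 and 3136. A further 4820 IL4 and 3070 Control barcodes passed no gate, and 869 and 492 carried the markers of more than 1 type. Within a type, UMIs were summed per library and divided by the total of that type and library, giving counts per 1000000 UMIs (CPM). With 1 library per group there was no replicate and no test, the ranges in brackets are exact 95% intervals that cover counting error only, and any difference between the libraries holds differences between animals as well. All types come from the same 2 libraries, so counts of types by direction or interval are not independent checks. The share of all genes with as many such types was not computed. Both libraries held female and male cells: of barcodes with transcripts of either Xist or Y-linked genes but not both, the Y-only ones were 10.9% in IL4 and 36.8% in Control. The Y-only barcodes numbered 1227 in IL4 and 2497 in Control, and a further 1134 and 1013 kept barcodes held both. A Y-only or Xist-only barcode therefore need not give the sex of its cell. Where it bears on a result, the ratio in each kind of barcode stands beside it.

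The ligands were rare. Il4 had 88 UMIs in 31 barcodes of the IL4 library and 39 UMIs in 19 barcodes of the Control library. T cells held 24 Il4 UMIs in 8 of 351 barcodes in IL4 and 16 in 7 of 208 in Control, and the mixed barcodes held 49 in 11 of 869 barcodes in IL4 and 3 in 3 of 492 in Control. The mast cell or basophil gate, known as a source of IL-4, held only 2 IL4 and 3 Control barcodes, with 3 and 10 Il4 UMIs. In macrophages Il4 had 1 UMI in IL4 and 0 in Control, which allows up to 0.248 CPM (3 counts) in Control. Il13, which encodes the other ligand of the type II receptor, had 88 UMIs in IL4 and 76 in Control over all kept barcodes, of which 33 and 27 were in T cells and 29 and 36 in the mixed barcodes. Il13ra2, a decoy receptor for IL-13, had 1 UMI in IL4 and 0 in Control. The ungated barcodes held 5 and 7 UMIs of Il4 and 15 and 4 of Il13 in IL4 and Control, and cDC2 6 Il13 UMIs in IL4 and 0 in Control. Macrophages held at most 1 UMI of either in a library.

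Il4ra (chr7:125552120-125579474, + strand, GRCm38), which encodes the IL-4-binding chain, was present in every leukocyte type. Macrophages had 135 CPM (129 to 141) in IL4 and 125 CPM (119 to 132) in Control, and classical monocytes 134 CPM in IL4 and 119.7 CPM in Control. Neutrophils had 167 CPM in IL4 and 132 CPM in Control, cDC2 139 and 131 CPM, and mature DC 122 and 138 CPM. The libraries of these 5 types overlapped from one type to the next, and the type with the highest level was not the same in both libraries. Non-classical monocytes had 103 CPM in IL4 and 99.6 CPM in Control, and cDC1 86.8 and 87.0 CPM. T cells were lowest in both libraries. NK cells had 98.9 CPM in IL4 and 72.0 CPM in Control, and T cells 75.2 and 51.3 CPM. Neutrophils held 2.22 times the T cell level in IL4 and 2.58 times in Control. In the order of the 9 types by the mean of the libraries, 6 of the 8 pairs of neighbours overlapped in the range their 2 libraries spanned, so the order among the myeloid types is not settled.

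Between the libraries Il4ra moved little. It was 1.08-fold higher (1.01 to 1.15) in IL4 macrophages and 1.12-fold higher (1.06 to 1.17) in IL4 classical monocytes than in their Control counterparts. The largest differences were in lymphocytes, where Il4ra was 1.47-fold higher (1.18 to 1.83) in IL4 T cells and 1.37-fold higher (1.09 to 1.75) in IL4 NK cells. None of the 9 types reached 1.5-fold, a size at which 1.92% (classical monocytes) to 11.3% (non-classical monocytes) of all genes compared were higher in IL4 and 1.48% to 13.6% lower. Il4ra in T cells did pass it under a stricter gate, at 0.69 on the log2 scale, without the 5% of barcodes with the most UMIs, at 0.75, and after thinning, at 1.498, all against 0.54. Of the 9 intervals, 5 lay above 1 and 1, that of mature DC, below 1. The NK cell difference was 0.54 on the log2 scale among Xist-only barcodes and -0.17 among Y-only ones, so its sign differed between them, while that of T cells was 0.57 and 0.42. Log2 ratios here are of CPM plus 1, IL4 over Control.

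Il13ra1 (chrX:36112110-36171259, + strand), the partner chain of the type II receptor, was high in myeloid cells and low in lymphocytes. Neutrophils had 126 CPM (102 to 154) in IL4 and 130.2 CPM (114 to 148) in Control, classical monocytes 66.9 CPM in IL4 and 76.4 CPM in Control, and macrophages 29.8 and 38.1 CPM. The neutrophil level stood above that of all other types in both libraries, and macrophages were below the monocytes. Among the dendritic cells, cDC1 were below macrophages and the others above them, with 50.6 CPM in IL4 and 56.9 CPM in Control in cDC2, 42.3 and 53.9 CPM in mature DC and 25.1 and 22.9 CPM in cDC1. T cells had 5.92 CPM in IL4 and 6.56 CPM in Control, and NK cells 4.87 and 3.87 CPM, from 21 and 16 and from 17 and 5 UMIs. Neutrophils thus held 25.8 times the NK cell level in IL4 and 33.6 times in Control. A UMI of Il13ra1 was found in 18.6% of IL4 and 23.5% of Control macrophages (median 7686 and 8914.5 UMIs), against 5.41% and 4.81% of T cells (median 7773 and 7836.5 UMIs). T cells are taken here as the type that should lack the chain, and their share is read as background. After each barcode had been thinned to 1000 UMIs, the share was 14.7% of IL4 and 12.1% of Control neutrophils, 3.16% and 4.04% of macrophages, and 0% of T cells in both. Of the 8 pairs of neighbouring types, 2 overlapped.

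Il13ra1 tended to lie lower in IL4, in 7 of 9 types, but none reached 1.5-fold. It was 1.28-fold lower (1.12 to 1.46) in IL4 macrophages, 1.14-fold lower (1.07 to 1.22) in IL4 classical monocytes and 1.27-fold lower (1.07 to 1.52) in IL4 mature DC, and the intervals of the other 6 types spanned 1. The macrophage ratio was -0.37 among Xist-only barcodes and -0.33 among Y-only ones, whereas that of classical monocytes was 0.04 and -0.30. Over the 9 types the ratio was below 0 in 3 types among Xist-only barcodes and in 5 among Y-only barcodes. Il13ra1 is X-linked, and the part of the mix of sexes in these ratios was not tested.

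Il2rg (chrX:101264378-101268255, - strand), the common gamma chain of the receptors for IL-2, IL-4, IL-7, IL-9, IL-15 and IL-21, was highest in lymphocytes. NK cells had 222 CPM (207 to 239) in IL4 and 204 CPM (181 to 231) in Control, and T cells 175 CPM in IL4 and 180.1 CPM in Control. Next came cDC2 with 137 CPM in IL4 and 112 CPM in Control, and mature DC with 130.5 and 118 CPM. Macrophages had 73.5 CPM in IL4 and 60.2 CPM in Control, classical monocytes 82.6 and 68.0 CPM, and cDC1, the lowest, 33.0 and 27.2 CPM. The lymphocyte gates were highest in both libraries, and the step from NK cells down to cDC1 was 6.75-fold in IL4 and 7.51-fold in Control. Of the 8 neighbouring pairs in its order, 4 overlapped. The B cell gate, too small for the list of 9 types, had 254 CPM of Il2rg in IL4 and 220 CPM in Control, from 40 and 74 UMIs. Il2rg was 1.22-fold higher (1.11 to 1.34) in IL4 macrophages, 1.22-fold higher (1.14 to 1.30) in IL4 classical monocytes and 1.23-fold higher (1.12 to 1.34) in IL4 cDC2. Neutrophils, with 90.9 CPM in IL4 and 60.2 CPM in Control from 68 and 104 UMIs, were the only one of the 9 types past 1.5-fold, and there the ratio was 0.28 after thinning and 0.56 when centred on the median of all genes, 0.16 among Xist-only barcodes and 1.05 among Y-only ones. In macrophages and classical monocytes the ratio was above 0 in both kinds of barcodes, at 0.28 and 0.19 and at 0.28 and 0.33.

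**Figure D1:**
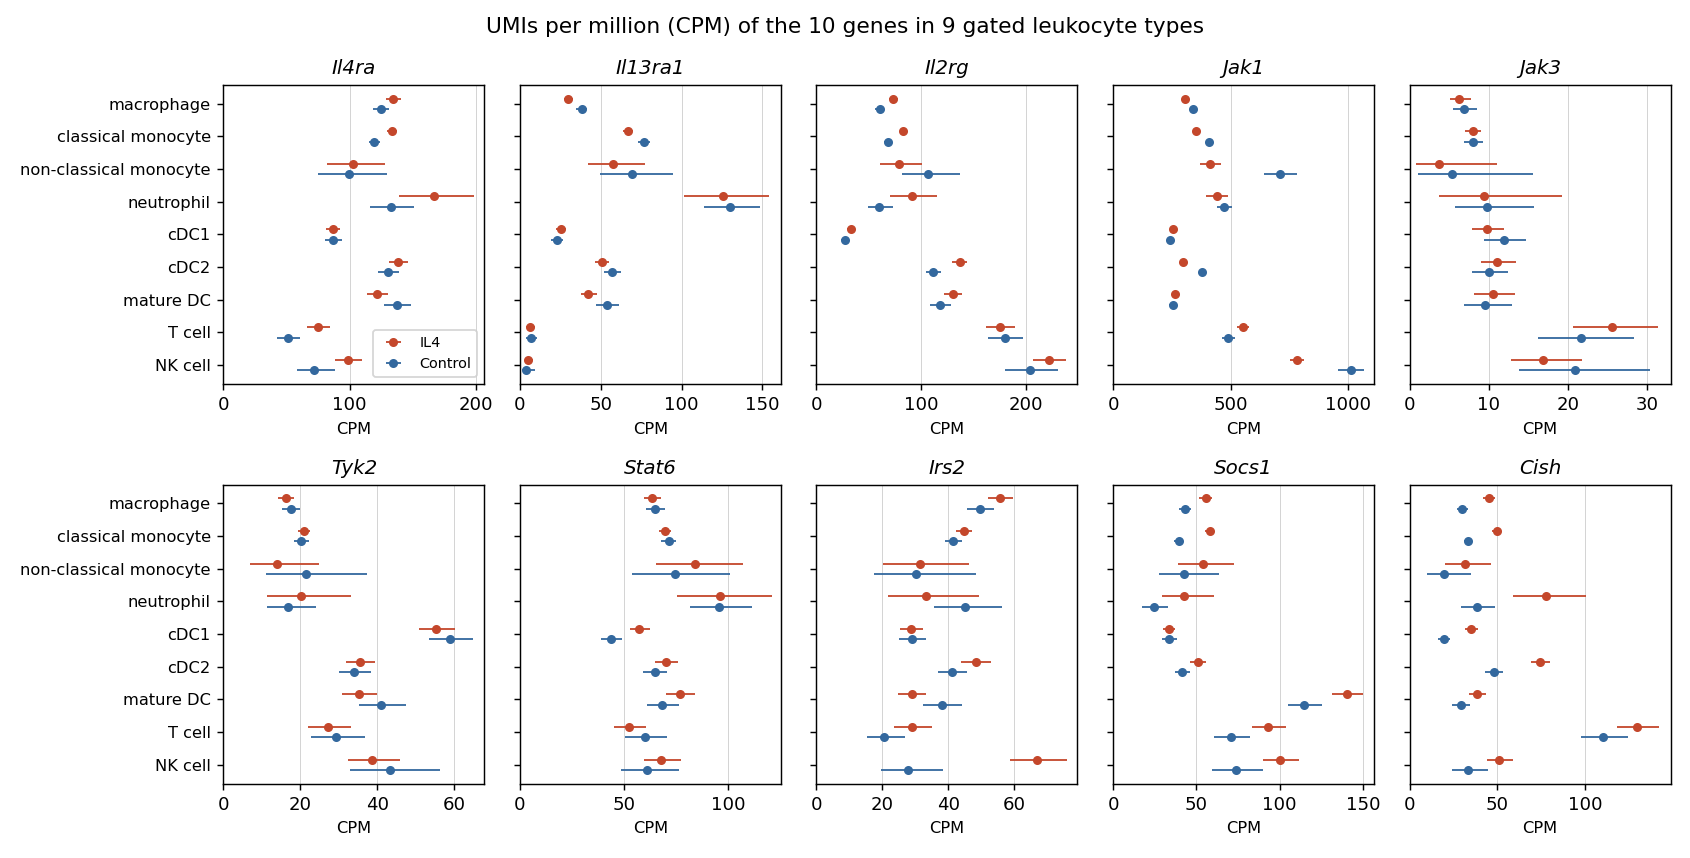
Level of each of the 10 genes (CPM, horizontal axes, a separate scale per gene) in the 9 gated leukocyte types, with IL4 (red) above Control (blue). Points are 1 library each and lines are exact 95% counting intervals. Il13ra1 is lowest in T and NK cells and Il2rg and Jak1 highest in NK cells, while the red points of Cish lie to the right of the blue ones in all 9 types.

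The chains were also read in the same barcode, since a cell needs both chains of a receptor. Il4ra and Il2rg, the type I pair, were found together in 25.6% of IL4 and 25.6% of Control macrophages, and Il4ra and Il13ra1, the type II pair, in 11.8% and 16.0%. In classical monocytes the type I pair was found in 28.7% of IL4 and 26.7% of Control barcodes and the type II pair in 23.9% and 28.5%. In T cells the type I pair was found in 32.5% of IL4 and 29.8% of Control barcodes and the type II pair in 2.85% and 3.37%. That type II share cannot exceed the Il13ra1 share of T cells, which is read here as background. Neutrophils were the reverse, with the type I pair in 14.9% of IL4 and 12.3% of Control barcodes and the type II pair in 18.9% and 19.1%. Pairs were close to what the separate shares multiply to: in macrophages the product was 23.2% in IL4 and 23.0% in Control for the type I pair. All 3 chains were seen in 6.11% of IL4 and 8.32% of Control macrophages, and none of them in 23.8% and 22.7%. These shares grow with depth, as each barcode yields few UMIs of any chain, and after thinning to 1000 UMIs the type I pair was left in 1.13% of IL4 and 1.01% of Control macrophages.

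A measure less tied to depth is the number of Il2rg UMIs per UMI of Il13ra1 within a type. It was 2.47 in IL4 and 1.58 in Control macrophages, 1.24 and 0.890 in classical monocytes, 0.723 and 0.462 in neutrophils, and 29.6 and 27.4 in T cells. The macrophage and monocyte values were higher in IL4, where Il2rg was a little higher and Il13ra1 a little lower. The neutrophil value was higher as well, with Il2rg at 90.9 CPM in IL4 and 60.2 CPM in Control. Il13ra1 was about level there, at 126 CPM in IL4 and 130.2 CPM in Control. The measure is a ratio of captured RNA molecules, not of receptor chains on the surface.

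**Figure D2:**
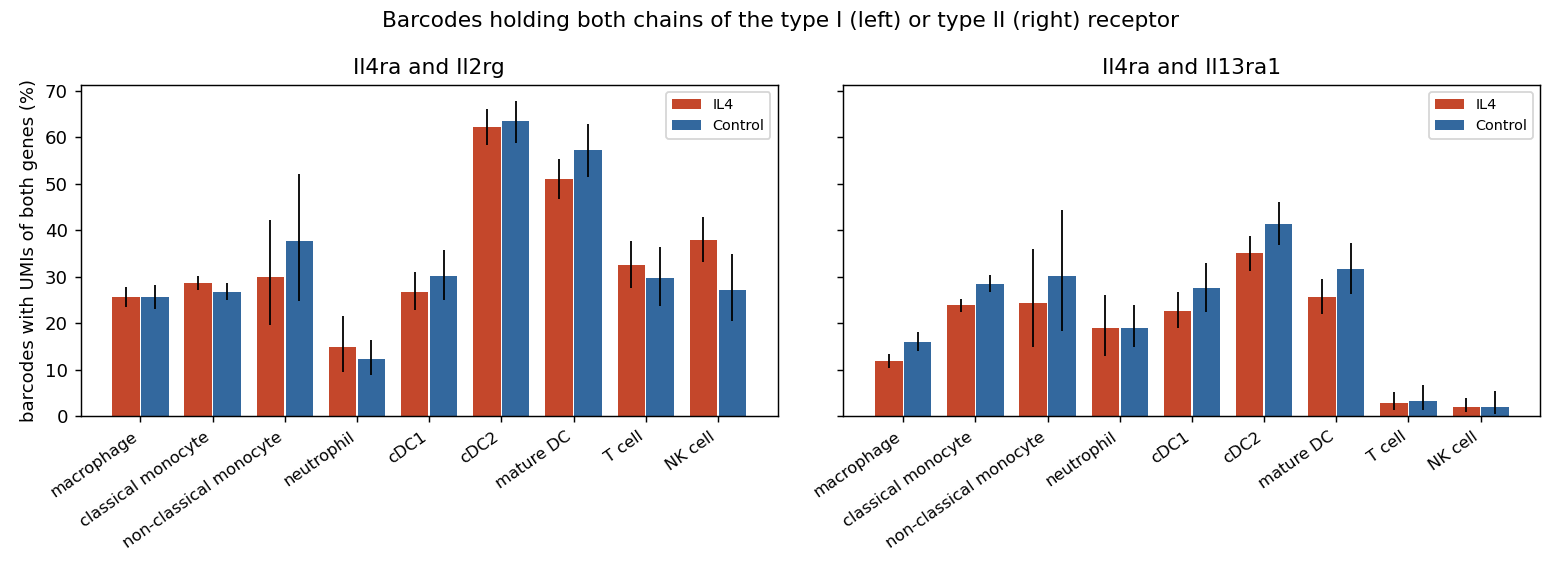
Share of barcodes (percent, vertical axis) that held UMIs of both Il4ra and Il2rg (left, type I receptor) or of both Il4ra and Il13ra1 (right, type II receptor) in each gated type, IL4 (red) beside Control (blue). Bars are 1 library each, lines are exact 95% binomial intervals, and the type II pair is near 0 in T and NK cells.

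Among the kinases, Jak1 (chr4:101152367-101265282, - strand), which serves many cytokine receptors, peaked in NK cells with 781 CPM (752 to 811) in IL4 and 1012 CPM (958 to 1069) in Control. T cells had 552 CPM in IL4 and 490.1 CPM in Control, macrophages 307 and 342 CPM, and cDC1, the lowest in both libraries, 254 and 244 CPM. Of its 8 neighbouring pairs, 3 overlapped. Jak1 was lower in IL4 in 6 of 9 types, and in 5 of them the interval lay below 1. In T cells it lay above 1, at 1.13-fold higher (1.05 to 1.21) in IL4. It was 1.12-fold lower (1.07 to 1.17) in IL4 macrophages, 1.16-fold lower (1.13 to 1.19) in IL4 classical monocytes, 1.28-fold lower (1.21 to 1.34) in IL4 cDC2 and 1.30-fold lower (1.21 to 1.39) in IL4 NK cells. Only the small gate of non-classical monocytes passed 1.5-fold, at 414 CPM in IL4 and 711 CPM in Control, 1.72-fold lower (1.48 to 1.996) in IL4, and its ratio was below 0 in both Xist-only (-0.64) and Y-only barcodes (-1.66, from 9 and 10 barcodes). Under a stricter gate it was -0.27. In macrophages the ratio was -0.24 among Xist-only barcodes and 0.00 among Y-only ones.

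Jak3 (chr8:71676296-71690575, + strand), the kinase tied to the common gamma chain, was scarce and followed the lymphocytes. T cells had 25.6 CPM (20.6 to 31.5) in IL4 and 21.7 CPM (16.3 to 28.4) in Control, NK cells 16.9 and 20.9 CPM, and macrophages 6.29 and 6.93 CPM. T cells were highest in both libraries, though their interval overlapped that of NK cells in Control. Its 3 IL4 and 3 Control UMIs in non-classical monocytes fell under the minimum of 20, so it was compared in 8 of the 9 types, and every interval spanned 1. Tyk2 (chr9:21104068-21131243, - strand), the kinase of IL-13Rα1 and of the receptors for IL-12 and type I interferon, was highest in cDC1. It had 55.3 CPM (50.8 to 60.2) in IL4 cDC1 and 58.9 CPM (53.3 to 64.9) in Control cDC1, 35.1 and 41.0 CPM in mature DC, 38.7 and 43.4 CPM in NK cells, and 16.2 and 17.5 CPM in macrophages. Macrophages had the lowest mean of both libraries, though non-classical monocytes were lower in IL4 and neutrophils in Control, and cDC1 held 3.42 times the macrophage level in IL4 and 3.37 times in Control. The interval of Tyk2 between the libraries spanned 1 in all 9 types. In non-classical monocytes, with 11 IL4 and 12 Control UMIs, it passed 1.5-fold at 13.8 and 21.3 CPM, lower in IL4, but its ratio was above 0 among Y-only barcodes and after thinning, where Control had 0 UMIs.

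Stat6 (chr10:127642986-127660957, + strand), the factor that carries the IL-4 signal to the nucleus, varied little between types. Neutrophils had 96.2 CPM (75.3 to 121) in IL4 and 95.5 CPM (81.4 to 111) in Control, macrophages 63.5 CPM in IL4 and 64.8 CPM in Control, classical monocytes 69.6 and 71.4 CPM, and T cells 52.4 and 59.9 CPM. Neutrophils held 1.68 times the cDC1 level in IL4 and 2.18 times in Control, and 6 of the 8 neighbouring pairs of types overlapped. Between the libraries the fold was 0.980 (0.890 to 1.08) in macrophages and 0.975 (0.913 to 1.04) in classical monocytes. Its only interval above 1 was that of cDC1, with 57.3 CPM in IL4 and 43.8 CPM in Control, 1.31-fold higher (1.13 to 1.51) in IL4, and the ratio there was 0.32 for Xist-only barcodes and 0.52 for Y-only barcodes.

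Irs2 (chr8:10984681-11008458, - strand), an adaptor that links the phosphorylated receptor to phosphatidylinositol 3-kinase, was highest in macrophages in Control, with 55.8 CPM in IL4 and 49.7 CPM in Control. Classical monocytes had 44.8 CPM in IL4 and 41.6 CPM in Control, and cDC2 48.4 and 41.1 CPM. NK cells were the only type past 1.5-fold, with 67.1 CPM (58.8 to 76.2) in IL4 and 27.9 CPM (19.5 to 38.6) in Control, 2.41-fold higher (1.69 to 3.52) in IL4, from 234 and 36 UMIs. The NK ratio was 1.15 among Xist-only barcodes and 0.60 among Y-only ones, and after thinning the share of NK cells with a UMI was 5.21% in IL4 and 3.16% in Control. Over the 9 types 3 intervals lay above 1, those of NK cells, macrophages and cDC2, and 1 below 1, that of mature DC at 28.9 CPM in IL4 and 38.01 CPM in Control, while those of T cells (log2 ratio 0.48) and neutrophils (-0.42) spanned 1. Macrophage markers summed to 187 CPM in IL4 and 156 CPM in Control NK cells, with 8 and 7 of 8 markers detected and Mertk at 0 in Control. Their part in the difference was not tested. The B cell gate, too small for the list of 9 types at 29 IL4 and 60 Control barcodes, held more Irs2 than any of them, at 197 CPM in IL4 and 393 CPM in Control. So did the plasmacytoid dendritic cell gate, with 123 IL4 and 39 Control barcodes, at 93.7 and 76.2 CPM.

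Socs1 (chr16:10782240-10785536, - strand), an inhibitor of JAK kinases that interferon and IL-4 both induce, was highest in mature DC, with 141 CPM (132 to 149.96) in IL4 and 115 CPM (105 to 125) in Control. NK cells had 100.3 CPM in IL4 and 73.6 CPM in Control, T cells 93.2 and 71.0 CPM, macrophages 55.6 and 43.0 CPM, and classical monocytes 58.1 and 39.3 CPM. Socs1 was higher in IL4 in 8 of 9 types, and in 7 the interval lay above 1, but only neutrophils passed 1.5-fold, with 32 IL4 and 42 Control UMIs and 42.8 and 24.3 CPM. How many of all genes were higher in as many types was not computed. The neutrophil ratio was 0.29 when Y-only barcodes were read. Socs1 was 1.48-fold higher (1.36 to 1.60) in IL4 classical monocytes and 1.29-fold higher (1.16 to 1.45) in IL4 macrophages. In cDC1 it was level, at 33.4 CPM in IL4 and 33.5 CPM in Control. The macrophage difference also depended on which cells were read: Xist-only macrophages had 59.8 CPM in IL4 and 37.2 CPM in Control, while Y-only macrophages had 34.7 CPM in IL4 (134 barcodes) and 58.3 CPM in Control (295 barcodes). Over the 9 types the Socs1 ratio was above 0 in 9 types when Xist-only barcodes were read and in 6 when Y-only ones were.

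Cish (chr9:107296026-107302784, + strand), a feedback inhibitor that cytokines acting through STAT5 are known to induce, had the same direction of difference in every type. It was higher in IL4 in 9 of 9 types, in 8 with an interval above 1, and at least 1.5-fold higher in 5 of them. The types share their 2 libraries, and how many of all genes were higher in as many types was not computed. Macrophages had 45.0 CPM (41.6 to 48.6) in IL4 and 30.1 CPM (27.1 to 33.4) in Control, and classical monocytes 49.5 CPM (47.1 to 52.1) in IL4 and 33.2 CPM (30.9 to 35.7) in Control. These are 1.49-fold higher (1.31 to 1.70) and 1.49-fold higher (1.37 to 1.63), just short of 1.5-fold. The 5 types past 1.5-fold were neutrophils, at 77.5 CPM in IL4 and 38.2 CPM in Control, cDC1 at 35.1 and 19.5 CPM, cDC2 at 74.4 and 47.9 CPM, NK cells at 51.0 and 33.3 CPM and non-classical monocytes at 31.4 and 19.6 CPM. Each of the 5 dropped below 1.5-fold under at least 1 other setting. On the log2 scale cDC2 had 0.53 under a stricter gate, NK cells 0.58 without the 5% of barcodes with the most UMIs, non-classical monocytes 0.28 under a looser gate, cDC1 0.42 when Y-only barcodes were read and neutrophils 0.32 when Xist-only ones were. The non-classical monocytes rest on 25 IL4 and 11 Control UMIs, and theirs was the interval that spanned 1. T cells, the type with the most Cish, differed least, at 129.6 CPM in IL4 and 110.3 CPM in Control. Of all genes compared, 3.70% had a higher ratio than Cish in macrophages, 2.17% in classical monocytes, 1.44% in cDC1, 2.45% in cDC2 and 2.85% in neutrophils. The share was 7.58% in NK cells, 9.09% in non-classical monocytes, 9.12% in mature DC and 22.5% in T cells.

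The Cish ratio was also above 0 in 9 of 9 types when Xist-only barcodes were read, and again in 9 of 9 for Y-only ones. Some Y-only ratios rest on very few barcodes. That of non-classical monocytes was 0.09, from 9 IL4 and 10 Control barcodes, and neutrophils had 16 and 93 Y-only barcodes. In macrophages it was 0.54 among Xist-only barcodes and 0.79 among Y-only ones, and in classical monocytes 0.55 and 0.30. After thinning, 5.24% of IL4 and 3.53% of Control macrophages held a Cish UMI, and 4.96% and 2.80% of classical monocytes. In cDC2 and T cells the thinned shares ran the other way, at 6.05% in IL4 and 7.22% in Control cDC2 and 10.8% and 16.3% of T cells. T cells being rich in Cish, their 8 marker genes were summed in the other gates: they gave 17.7 CPM in IL4 and 12.1 CPM in Control macrophages, 17.7 and 10.8 CPM in classical monocytes, 27.7 and 22.5 CPM in cDC1 and 42.8 and 21.4 CPM in neutrophils. All 8 were detected in these gates, save Cd5 in IL4 neutrophils, and their sum was higher in IL4 in each. In NK cells, where Cish was higher in IL4 as well, they summed to 74.5 CPM in IL4 and 86.0 CPM in Control, lower in IL4. The part of T cell RNA in the Cish differences was not tested. Among T cells, the CD4 gate (46 IL4 and 51 Control barcodes) had 246 CPM of Cish in IL4 and 133 CPM in Control, and the CD8 gate (216 and 99 barcodes) 109 and 99.4 CPM.

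The Cish promoter is shown because Cish is the gene that differed in the most types, and because the RefSeq window at its start held STAT motifs that the windows of the other members did not. The stretch is from RefSeq (GRCm38.p6, chr9:107296509-107296688, + strand), with 150 bases before the start of the transcript RefSeq's window is built on and 30 from it on, 5′ to 3′, and capitals mark the motif TTCNNNGAA. The annotated gene begins further upstream, so this is the start of 1 transcript.
Cish: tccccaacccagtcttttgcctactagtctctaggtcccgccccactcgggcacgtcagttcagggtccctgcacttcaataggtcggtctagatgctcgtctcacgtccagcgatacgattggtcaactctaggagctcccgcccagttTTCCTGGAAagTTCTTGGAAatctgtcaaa
The motif stood at bases 151 and 162 of this stretch, which are bases 1 and 12 of the transcript. It was searched in 300 bases, 250 before the start and 50 after it, on both strands, which for this palindrome are the same, beside TTCNNNNGAA, the spacing that STAT6 is known to prefer. RefSeq windows were matched for all 10 members, and the other 9 held neither motif. Of 32851 windows, 8.30% held TTCNNNGAA and 6.95% held TTCNNNNGAA. A match of letters does not show that a factor binds there.

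**Figure D3:**
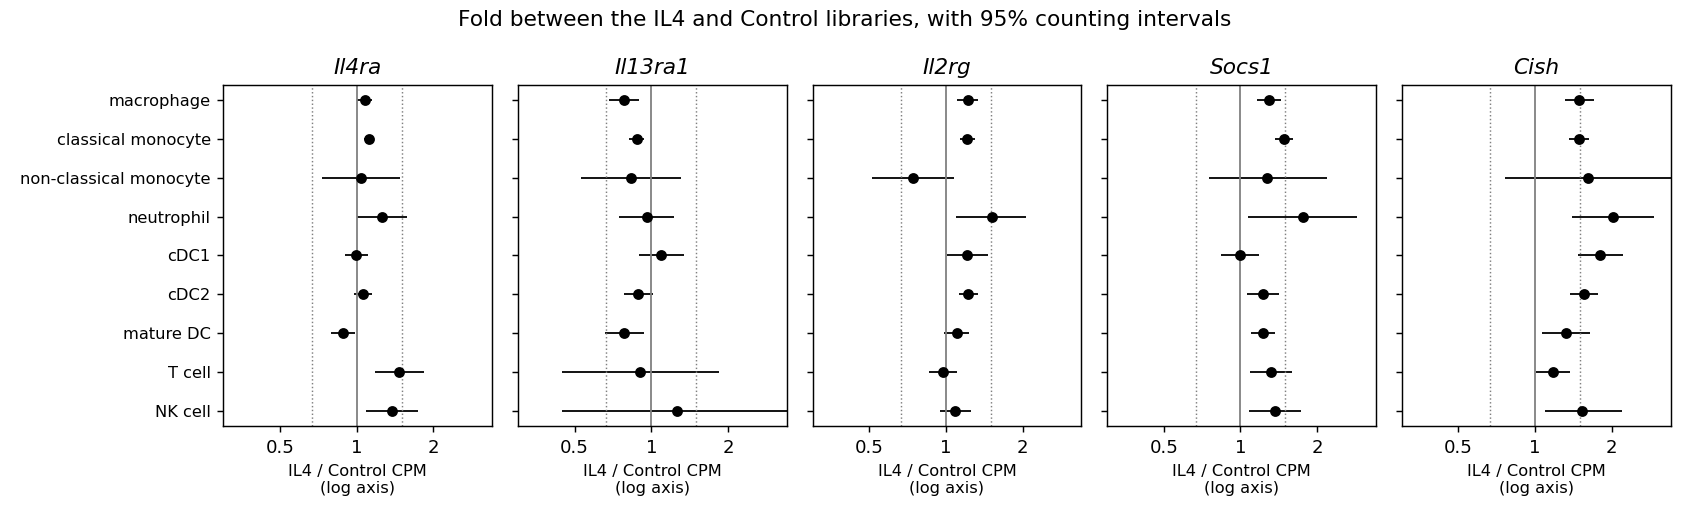
Fold between the libraries (IL4 over Control CPM, horizontal log axis) for the receptor chains and the inhibitors in 9 gated types. Points are folds of 1 library over 1 library, lines exact 95% counting intervals, the solid line marks equality and dotted lines 1.5-fold in either direction; every Cish point lies right of equality.

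Read over all 10 genes, few passed 1.5-fold on the CPM plus 1 scale. In all kept barcodes 0 of 10 did, while 1.01% of 17287 genes were that much higher in IL4 and 0.983% that much lower. In macrophages 0 of 10 did, against 3.39% higher and 4.92% lower of 12618 genes, and in classical monocytes 0 of 10, against 1.92% and 1.48%. The counts were 1 higher in cDC2 (Cish; background 2.82% higher and 5.59% lower) and 1 higher in cDC1 (Cish; 3.47% and 4.93%), and 0 in mature DC (4.05% and 5.73%) and in T cells (6.2% and 6.27%). NK cells had 2 higher (Irs2 and Cish; 7.96% and 9.06%), neutrophils 3 higher (Il2rg, Socs1 and Cish; 10.7% and 10.4%), and non-classical monocytes 1 higher and 2 lower of 9 compared (Cish against Jak1 and Tyk2; 11.3% and 13.6%). In the last 3 gates, which are small, many genes of any kind passed. The median log2 ratio of the 10 genes was 0.04 in macrophages, where that of all genes was -0.09, and 0.08 in classical monocytes, where that of all genes was -0.03. Of the barcodes outside the types, the mixed ones had 1 higher and 1 lower (Socs1 against Il13ra1; 2.79% and 2.89%) and the ungated ones 0 (3.02% and 1.91%). Of the 10 genes, 8 had the same highest type in both libraries, the exceptions being Il4ra and Irs2. For Jak3 the highest type led the next by only 1.04-fold in Control. The share of all genes that keep their highest type was not computed, so the count says nothing particular about these genes.

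**Figure D4:**
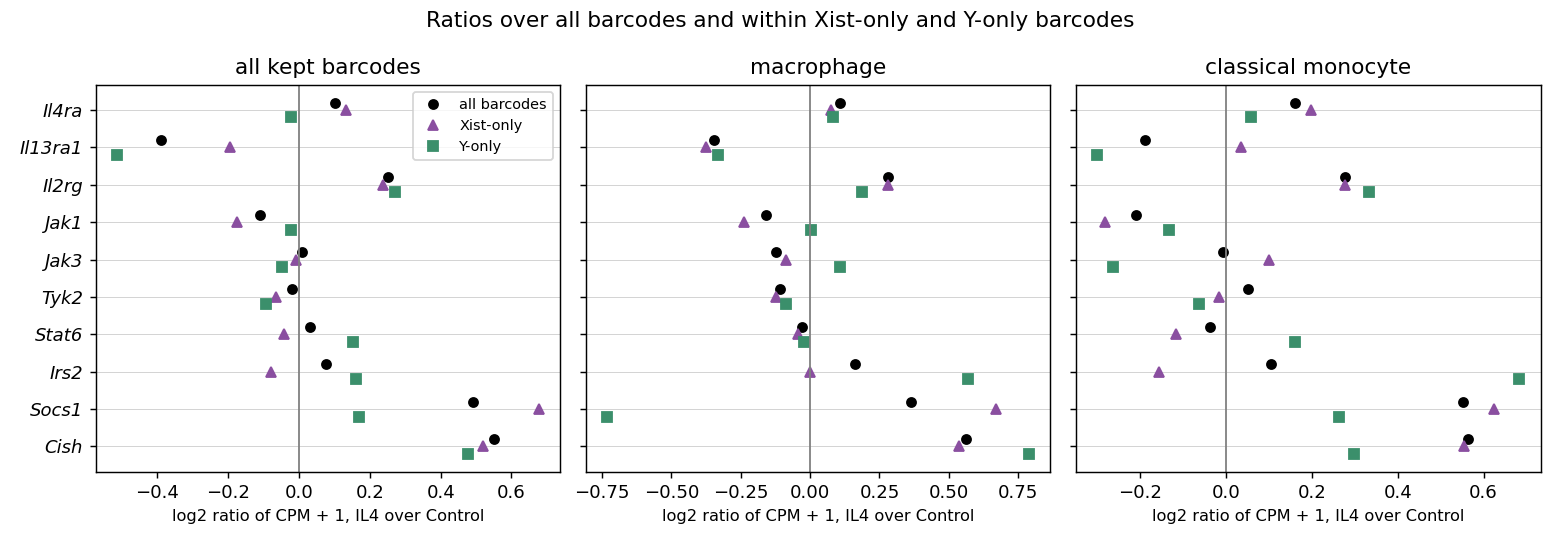
Log2 ratio of CPM plus 1 (IL4 over Control, horizontal axes, a separate scale per panel) of the 10 genes over all barcodes (circles), Xist-only barcodes (triangles) and Y-only barcodes (squares), in all kept barcodes, macrophages and classical monocytes. Cish lies right of 0 for all 3 symbols in each panel, while Socs1 in Y-only macrophages lies left of 0.

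Macrophages were divided further by marker lists for inflammatory (608 IL4 and 259 Control barcodes), interferon-stimulated (411 and 173), hypoxic (159 and 233) and lipid-handling states (54 and 81), with 450 and 402 left undivided and 19 and 54 resident-like. Il4ra was similar in most of these, at 143 CPM in IL4 and 124 CPM in Control in inflammatory and 138 and 131 CPM in hypoxic macrophages, and lowest in lipid-handling ones, at 82.8 and 81.3 CPM. The few resident-like ones were highest in both libraries, at 224 CPM in IL4 and 148 CPM in Control, from 38 and 83 UMIs. Il13ra1 was highest in the hypoxic ones, at 47.2 CPM in IL4 and 54.0 CPM in Control, and was 24.5 and 30.5 CPM in the inflammatory ones. The subdivision highest in Il13ra1 was the same in both libraries, as was the one lowest in Il4ra. Cish was higher in IL4 in each of the 6. It had 30.9 CPM in IL4 and 18.0 CPM in Control in interferon-stimulated, 52.6 and 38.03 CPM in inflammatory, 61.5 and 44.0 CPM in hypoxic, 40.0 and 27.4 CPM in lipid-handling and 45.7 and 27.7 CPM in undivided macrophages, and in the resident-like ones only 4 UMIs in each library. Socs1 split by subdivision: it had 61.5 CPM in IL4 and 35.03 CPM in Control in inflammatory and 73.5 and 52.7 CPM in interferon-stimulated macrophages, but 30.01 and 40.3 CPM in hypoxic and 46.5 and 49.6 CPM in undivided ones, and 29.97 and 40.7 CPM in lipid-handling ones. Among Xist-only barcodes the Socs1 log2 ratio was 0.97 in inflammatory, 0.30 in interferon-stimulated and -0.60 in hypoxic macrophages. It was 0.47 in lipid-handling and 0.69 in undivided ones. Among Y-only barcodes the ratios were 0.66, -0.54, -0.59, -2.02 and -1.72 in the same order, the lipid-handling one from 7 IL4 and 21 Control barcodes. These differences between subdivisions, and the part of the mix of sexes in them, were not tested. Inflammatory and interferon-stimulated cells were a larger part of the IL4 macrophages. With the Control subdivisions weighted as in IL4, the log2 ratio over all macrophages was 0.19 for Il2rg, against 0.28 without weights, and -0.23 for Il13ra1, against -0.35. It was 0.33 for Socs1, against 0.36, and 0.58 for Cish, against 0.56. Of the 10 genes, 1 passed 1.5-fold in inflammatory (Socs1; background 5.23% higher and 7.77% lower), 1 in interferon-stimulated (Cish; 6.56% and 10.3%) and 1 in undivided macrophages (Cish; 4.28% and 8.88%), all higher in IL4, and 0 in hypoxic ones (6.82% and 8.76%). In lipid-handling macrophages 1 of 9 compared was lower, Il13ra1 on 14 IL4 and 38 Control UMIs (8.23% and 11.8%), and in the 19 and 54 resident-like ones 2 of 5 compared were higher, Il4ra and Il2rg (11.2% and 29.7%).

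**Figure D5:**
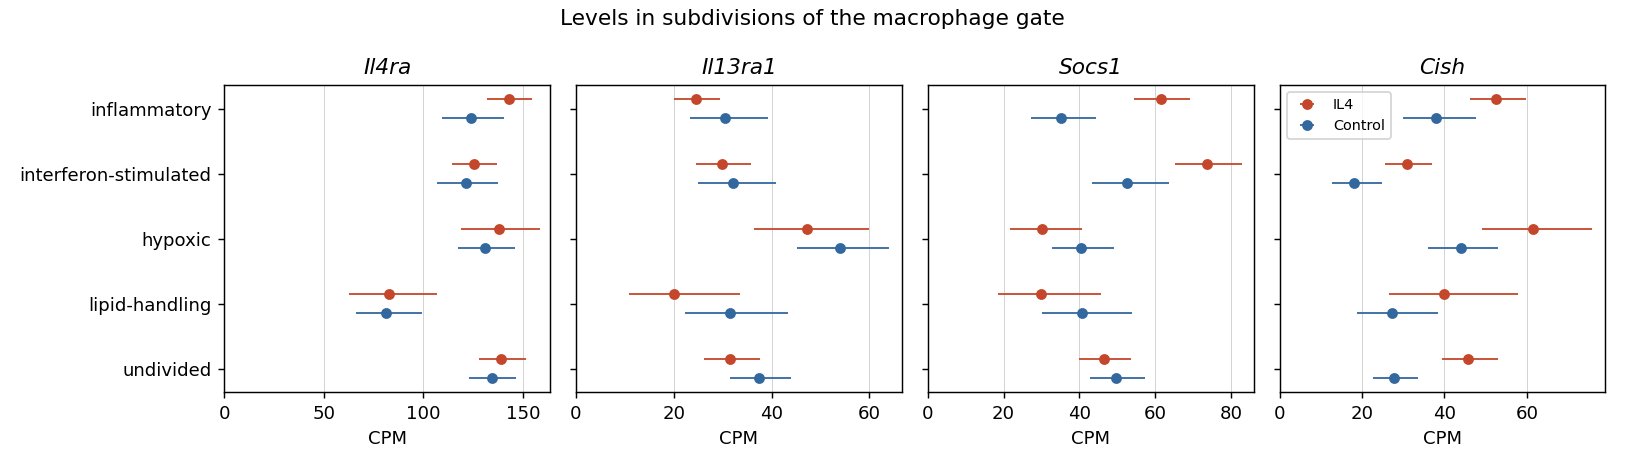
Level (CPM, horizontal axes, a separate scale per gene) of Il4ra, Il13ra1, Socs1 and Cish in subdivisions of the macrophage gate, IL4 (red) above Control (blue). Points are 1 library each with exact 95% counting intervals; the resident-like subdivision, with 19 IL4 barcodes, is not drawn. The red Cish point lies right of the blue one in all 5.

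Genes around the pathway were read as lists, whose counts stand beside a background of 3.39% of genes higher and 4.92% lower in macrophages (median log2 ratio -0.09) and of 1.92% and 1.48% in classical monocytes (median -0.03). Of 20 genes that IL-4 induces through STAT6 in mouse macrophages, 19 could be compared in the macrophage gate, where 1 was at least 1.5-fold higher and 7 at least 1.5-fold lower in IL4, with a median log2 ratio of -0.40. The largest differences were in Retnla, a secreted marker of alternative activation, with 76.0 CPM in IL4 and 269 CPM in Control, in Ccl24, an eosinophil chemokine, with 73.3 and 236 CPM, and in Mgl2, a lectin, with 42.4 and 108 CPM, all lower in IL4. In classical monocytes 4 were higher and 2 lower of 19, with a median log2 ratio within 0.01 of 0, and Retnla ran the other way, at 15.9 CPM in IL4 and 7.08 CPM in Control. The direction of the list turned between types: in NK cells 7 were higher and 1 lower of 16 (median 0.42; background 7.96% and 9.06%), and in T cells 0 higher and 7 lower of 16 (median -0.32; 6.2% and 6.27%). Of 18 compared, 4 were higher and 2 lower in cDC1, 1 and 4 in cDC2, and 3 and 4 in mature DC. In neutrophils 3 were higher and 5 lower of 16, and in non-classical monocytes 4 and 3 of 11. The backgrounds of these types stand above. The lymphocyte gates also held RNA of other types. Mature DC markers summed to 149 CPM in IL4 and 62.7 CPM in Control NK cells, and to 219 and 162 CPM in T cells. Neither the difference between types nor the part of such RNA in it was tested. Resident-like macrophages made up 19 of 1701 IL4 and 54 of 1202 Control macrophages, and their part in the difference was not tested.

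Of 8 genes that STAT5 is known to induce, 2 were at least 1.5-fold higher and 0 lower in IL4 macrophages (median 0.41; background 3.39% and 4.92%), and 2 higher and 0 lower in IL4 classical monocytes (median 0.39; 1.92% and 1.48%). The pair that passed was the same in both, the IL-2 receptor chains Il2ra and Il2rb, with 3.25 CPM in IL4 and 0.908 CPM in Control macrophages for Il2ra and 9.05 and 3.63 CPM for Il2rb. NK and T cells are known for both chains, and the 8 NK cell markers summed to 11.1 CPM in IL4 and 4.87 CPM in Control macrophages, with all 8 detected in each. Their part was not tested. The kinase gene Pim1 of that list had 1232 CPM in IL4 and 868 CPM in Control macrophages, short of 1.5-fold.

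Of 12 other kinases, STATs and adaptors, 1 was higher and 0 lower among 11 compared in macrophages, where 3.39% of all genes were higher and 4.92% lower; the same background holds for the other lists here. It was Jak2, the kinase of the receptors for interferon gamma and for GM-CSF, at 155 CPM in IL4 and 89.6 CPM in Control macrophages and 204 and 136 CPM in classical monocytes. Of 10 other negative regulators, 1 was higher in IL4 macrophages, Socs3, an inhibitor that IL-6 and IL-10 induce, at 588 CPM in IL4 and 332 CPM in Control, and 0 lower. In classical monocytes Socs3 had 488 CPM in IL4 and 356 CPM in Control, short of 1.5-fold. Of a list of receptor chains that are mostly used with the common gamma chain, 2 of 6 compared were higher in macrophages. They were again Il2ra and Il2rb, which stand in both lists, while Il7r had 76.0 CPM in IL4 and 52.2 CPM in Control. The list also held Crlf2, which does not pair with the common gamma chain. Genes that tissue dissociation is known to induce also differed in macrophages, 1 higher and 2 lower of 14, with a median log2 ratio of 0.41, where that of the STAT5-induced genes was 0.41 and that of all genes -0.09. The immediate-early gene Ier2 had 450.1 CPM in IL4 and 261 CPM in Control, and the heat-shock genes Hspa1a and Hspa1b 885 and 1647 CPM and 497 and 1117 CPM. Socs1, Socs3 and Cish are fast-responding genes as well, and whether handling of the samples has a part in their differences was not tested.

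The genes whose levels followed each member most closely over the 9 types, both libraries summed, were found by Pearson's r of log2 CPM plus 1 among 7529 genes, and r is given in brackets as a description over 9 points that share their libraries and gates. For Il4ra they were Oasl2 (0.97), Dstyk (0.93), Gadd45g (0.92), Tcn2 (0.92) and Csrnp1 (0.92), for Il13ra1 Csf2rb (0.98), Lilra6 (0.97), Sbno2 (0.97), Samd4b (0.97) and Pira2 (0.97), and for Il2rg Zfp52 (0.94), Mmd (0.92), Pou2f1 (0.91), Panx1 (0.90) and Arap2 (0.90). Csf2rb, next to Il13ra1, encodes the shared chain of the receptors for GM-CSF, IL-3 and IL-5. For the kinases they were Sos2 (0.98), Ankrd11 (0.95), Heca (0.95), Nin (0.95) and Ythdc1 (0.94) for Jak1, Jazf1 (0.97), Unc13d (0.97), Cep97 (0.96), Ccne1 (0.96) and Cnot11 (0.96) for Jak3 and Akap9 (0.95), Sub1 (0.95), Kit (0.95), Coro2a (0.94) and Fnbp1 (0.94) for Tyk2. For Stat6 they were Kdm6b (0.96), Bsdc1 (0.95), Pim1 (0.92), Slc2a6 (0.92) and Nfkbid (0.91), and for Irs2 Cerk (0.93), Ccl4 (0.87), Vegfa (0.86), Slc41a2 (0.86) and Rab3gap2 (0.85), whose r values were the lowest of the 10 members. Kdm6b, next to Stat6, encodes a histone demethylase. For the inhibitors they were Fam53b (0.97), Csnk1g1 (0.97), Zfp598 (0.95), Rbm4b (0.95) and Ice1 (0.95) for Socs1 and Il1rl1 (0.98), Galnt3 (0.92), Bend4 (0.91), Ciapin1 (0.90) and Klhl15 (0.89) for Cish, and Il1rl1 encodes the receptor for IL-33.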

How the data were processed

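Single-cell RNA of CD45+ tumour leukocytes was read in 1 IL4 and 1 Control library. The values are raw UMI counts per gene and barcode as deposited; the authors made them with Cell Ranger 7.2.0 on mm10, per the submitters' processing notes, and no further step is given in the sources used here. The libraries held 133151428 UMIs in 13873 barcodes (IL4) and 95499107 UMIs in 8994 barcodes (Control).

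A barcode was kept if it reached 500 UMIs and 250 genes and if mitochondrial genes took no more than 10% of its UMIs. Types were gated by 8 markers each, of which 4 had to be detected with a lead of 2 over the next list. Macrophages, classical monocytes and cDC2 (5 markers) were gated among barcodes that met no other list. Barcodes without that lead, and lymphocyte or neutrophil barcodes that also met macrophage or monocyte minimums, were set aside as mixed. No doublet caller was run. The marker thresholds were chosen after the data had been seen, and the members and gene lists were chosen with earlier results of these data known. Gene positions are from GENCODE M21 (GRCm38).

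UMIs were summed per type and library and divided by the total to give CPM. A gene was compared with at least 20 UMIs over both libraries, and counted as higher or lower at 1.5-fold or more in CPM plus 1. Levels have exact Poisson, shares Clopper-Pearson and folds exact conditional 95% intervals. Shares were repeated with each barcode thinned to 1000 UMIs, leaving out 306 IL4 and 201 Control barcodes. Xist-only and Y-only barcodes hold transcripts of Xist or of Y-linked genes, but not of both. The text names all members, Il4, Il13 and Il13ra2, up to 3 genes of each other list with the largest log2 ratio per type, and the 5 genes most like each member. One further gene list is not reported here. The steps were tested on simulated data. Alternatives were other filters, gates, scalings, thinning and the split into Xist-only and Y-only barcodes. Python 3.11.15, numpy 2.4.6, scipy 1.17.1, pandas 2.3.3 and matplotlib 3.10.9 were used.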

Additional observations from a re-analysis of the deposited data

Results flagged for a closer look

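In the mixed barcodes, which no comparison by type used, 2 genes passed 1.5-fold between the libraries and so gave a signal outside the main measurement. Il13ra1 had a log2 ratio of -0.69 there, lower in IL4, and Socs1 a log2 ratio of 0.65, higher in IL4. The mixed barcodes were 869 in IL4 and 492 in Control, and which types they join was not compared between the libraries. With 1 library per group, neither value has a replicate.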

How the results depend on the processing

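No paired analysis was possible because each group holds 1 library, and for the same reason no replicate could be left out. Over 15 settings, 1410 log2 ratios of the 10 genes, in single types and in all kept barcodes, were recomputed. Of these, 1268 stayed within the main counting interval, and 112 had the other sign, 3 of them in a gene and type past 1.5-fold. The 1268 include ratios that a setting could not change, whose agreement was fixed in advance. Other UMI minimums per gene alter only which genes are compared. Other gates leave the ratios of all kept barcodes as they were, and the looser gate also left cDC2 unchanged. The number of genes past 1.5-fold was 0 in macrophages and became 1 with a stricter gate, 1 without the 5% of barcodes with the most UMIs and 1 with ratios centred on the median of all genes, each time Cish, higher in IL4. It became 1 after thinning to 1000 UMIs (Tyk2, lower), 1 among Xist-only barcodes (Socs1, higher) and 2 among Y-only barcodes (Socs1 lower, Cish higher). In classical monocytes it was 0 and became 1 with centred ratios (Cish), 2 after thinning (Socs1 and Cish), 1 among Xist-only barcodes (Socs1) and 1 among Y-only barcodes (Irs2), all higher in IL4. In all kept barcodes it became 1 among Xist-only barcodes (Socs1, higher). The log2 ratio of Cish in cDC2 was -0.18 after thinning, with 63.6 CPM in IL4 and 72.2 CPM in Control. That of Tyk2 in non-classical monocytes was 3.93 after thinning and 4.81 among Y-only barcodes, where Control had 0 UMIs, so its size depends on the added 1 CPM. The cause of these changes was not tested. Intervals cover counting error, and differences between animals cannot be told apart from the transfer.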
